A study of Mus musculus with 68 samples.

Results

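The RNA exosome is a protein machine that degrades and trims RNA from the 3′ end in the nucleus and the cytoplasm. Exosc4, Exosc5, Exosc6, Exosc7, Exosc8 and Exosc9 form a barrel-like ring without catalytic activity of its own in mammals, Exosc1, Exosc2 and Exosc3 form an RNA-binding cap on it, and Exosc10 is an exonuclease attached mainly to the nuclear form. A further nuclease, Dis3 in the nucleus or Dis3l in the cytoplasm, does much of the cutting. In neurons, as in other cells, the complex matures ribosomal RNA and removes aberrant and short-lived transcripts, and inherited mutations of several subunits, EXOSC3 and EXOSC9 among them, cause disorders of the cerebellum and motor neurons. The 10 genes named Exosc1 to Exosc10 were taken by symbol from a table of 36172 genes. The family was selected on the Exosc9 values of these same cells, its share of cells with a count and its difference between genotypes, so that all values below are a description without a test.

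The measurements are RNA-seq counts from 68 dopamine neurons of the VTA (ventral tegmental area), a midbrain nucleus involved in reward, each library made from RNA drawn into the recording pipette (Patch-seq). The 33 3xTg cells came from 12-month-old 3xTg-AD mice, a model of Alzheimer's disease homozygous for its transgenes, APP Swe and tau P301L among them, on a hybrid C57BL/6;129 background, and the 35 WT cells from non-transgenic mice of the same age and hybrid background that were bred as a separate line. Males and females were pooled, no agent distinguished the groups, and the labels name no mouse for a cell. Each genotype therefore counts as 1 sample, no test between genotypes was made, and an SD below is the spread across cells and not across animals.

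Total counts ran from 492505 to 1678624 per cell. A median of 8511 genes had a count of at least 1 per 3xTg cell and 7476 per WT cell. The dopamine neuron genes Th, Slc6a3, Slc18a2 and Ddc had counts in all 68 cells. Of 10 marker genes of astrocytes, microglia, oligodendrocytes and endothelium, Cldn5 was at 0 everywhere, and their summed level ran from 1.66 to 3656 CPM (counts per 1000000 counts) in 3xTg cells and from 1.51 to 4869 in WT cells, with medians of 86.5 and 144. The cell numbers in the labels fell into 5 runs that alternated between genotypes. The WT cells formed 3 of them, numbered 1 to 22, 57 to 74 and 94 to 96, and the 3xTg cells lay between, at 24 to 55 and at 76 to 92. What a run stands for is not given in the sources used here.

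3 summaries are used throughout. The mean over cells is that of log2(normalized count + 1), where counts were divided by a size factor for each cell, and its difference is given as 3xTg minus WT. The summed count of a genotype adds all its cells, and is compared as a log2 ratio of CPM. The share of cells is that with a count of at least 1. As background, the same was computed for all 11414 genes with a count in at least 14 of the 68 cells. Their median difference of the mean was 0.44 and 72.8% lay above 0, while their median log2 ratio of sums was −0.045, so that a gene near 0.44 by mean was at the level of the other genes.

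Exosc9 shares sequence with a neighbour, which bears on how its counts are read. Exosc9 lies at chr3:36552606-36565727 on the plus strand of mm10, and Ccna2, which encodes the cell cycle protein cyclin A2, lies at chr3:36564865-36571996 on the minus strand. No other member overlapped a gene of the table. The ends of the genes run into each other over 863 bases, and 378 bases of exon belong to both genes, which is 23.4% of the 1617-base Exosc9 transcript and 12.7% of the 2965-base Ccna2 transcript. Of these, 158 bases are coding in Exosc9 and 0 are coding in Ccna2. The stretch around the end of the Exosc9 reading frame, chr3:36565478-36565507, is shown from the GENCODE M21 transcripts (GRCm38, the same assembly as mm10) because a read from it carries the same bases whichever gene it came from, read from opposite strands. Capitals mark the Exosc9 stop codon.
Exosc9, plus strand: aggaagaagaagaagagaactgctaacTAA
Ccna2, minus strand: TTAgttagcagttctcttcttcttcttcct

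Exosc9 (Gene ID 50911), a ring subunit, had a count in 27 of 33 3xTg cells and in 10 of 35 WT cells. These were shares of 81.8% (exact 95% interval 64.5 to 93.02) and 28.6% (14.6 to 46.3), where the intervals cover counting error only. The gap of 53.2 percentage points ranked 1 of 11414 genes, among which the median gap was 7.53 points and 3 genes, or 0.0263%, had a gap of 50 points or more. The normalized counts ran from 0 over a median of 61.1 to 203 in 3xTg cells, and from 0 over a median of 0 to 322 in WT cells. The genotypes overlapped in full, since both held cells at 0 and the highest cell was WT. On the log2 scale the mean was 5.00 ± 2.52 (SD, 33 cells) in 3xTg and 1.77 ± 2.92 (SD, 35 cells) in WT, a difference of 3.23 that ranked 6 of 11414 genes.

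The difference lay in how many cells had a count and not in the level of the cells that had one. In the 27 and 10 counted cells the normalized count had a median of 66.3 among 3xTg and 80.7 among WT cells, and the means were 6.09 ± 1.02 and 6.15 ± 1.52 on the log2 scale (SD, counted cells), a difference of −0.060. The 10 WT cells had rounded counts of 91 in cell 1, 94 in cell 8, 146 in cell 10, 266 in cell 57, 57 in cell 58, 6 in cell 59, 189 in cell 64, 170 in cell 67, 49 in cell 68 and 85 in cell 74. All but cell 59 thus had 49 counts or more, and the other 25 WT cells had a count under 1. Summed over cells, Exosc9 had 2551 counts in 3xTg (exact Poisson interval 2453 to 2652) and 1153 in WT (1087 to 1222), or 69.5 and 33.9 CPM. The log2 ratio of 1.04 (0.90 to 1.18, counting error only) ranked 938 of 11414. WT cell 57 alone held 23.1% of the WT sum, and the ratio was 1.37 without it. The ratio was under 1 without any 1 of 24 cells, with a lowest value of 0.93 without 3xTg cell 42.

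**Figure D1:**
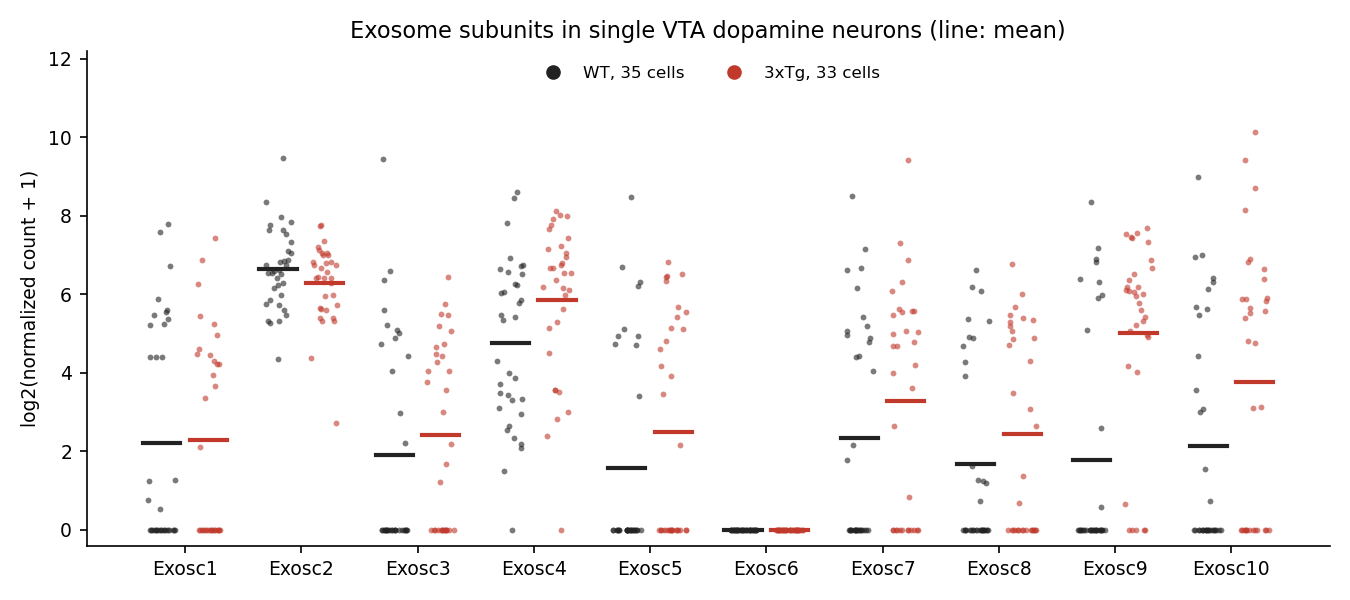
Each point is 1 cell and the y axis is log2(normalized count + 1), for each exosome subunit in 35 WT cells (black) and 33 3xTg cells (red), with a line at the mean. Exosc9 has a dense band of 3xTg cells above few WT cells at the same height, Exosc2 and Exosc4 have counts in nearly all cells, and Exosc6 is at 0 in all.

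Within the runs of label numbers, Exosc9 was counted in 15 of 21 cells of the first 3xTg run, 12 of 12 of the second, 3 of 17 of the first WT run, 7 of 15 of the second and 0 of 3 of the last. The difference of the mean was 3.25 for the first runs and 3.21 for the second, against medians over background genes of 0.42 and 0.49. Within a genotype Exosc9 was also higher in the second run than in the first, by 1.61 in 3xTg and 1.65 in WT, where the median background gene was higher by 0.50 and 0.53. By sums the first runs gave a genotype ratio of 1.73 and the second runs one of 0.43, where the WT cells held 822 of the 1153 WT counts.

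**Figure D2:**
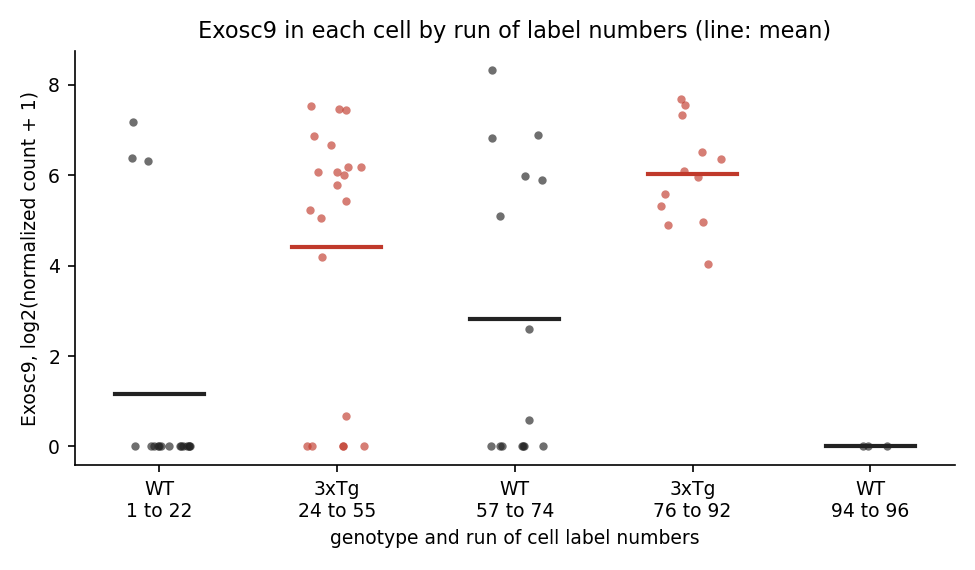
Exosc9 as log2(normalized count + 1) on the y axis, 1 point per cell, by genotype and run of label numbers on the x axis, with a line at each mean. The second 3xTg run has no cell at 0, the last WT run, of 3 cells, is at 0 throughout, and the second run of each genotype lies above its first.

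Cells without Exosc9 were also cells with fewer genes detected, in both genotypes. The 6 3xTg cells without a count had a median of 4796 genes and the 27 with a count 9158. The 25 WT cells without a count had a median of 6076 genes and the 10 with a count 8536. Cells without Exosc9 had a median of 3 of the 8 other counted subunits in either genotype, and cells with it had a median of 6 in either. By run, the median number of genes was 5233 and 8441 in the first and second WT runs, and 7648 and 9308 in those of 3xTg. In a linear fit that also held the number of genes per cell, the Exosc9 difference was 2.62, and after thinning every cell to 700471 counts (2 3xTg and 5 WT cells were shallower and left out) Exosc9 was counted in 27 of 31 and 9 of 30 cells. The part of detection in the remaining difference was not tested.

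Ccna2 followed Exosc9 from cell to cell. Of the 37 cells with Exosc9, 33 also had Ccna2, while 2 cells had Ccna2 at a count of 1 or more and Exosc9 under 1. In the 33 cells with both at a count of 1 or more, the ratio of the Ccna2 to the Exosc9 count ran from 0.0618 to 1.24 with a median of 0.181. Ccna2 had counts in 25 3xTg and 10 WT cells and summed to 489 and 208, a log2 ratio of 1.12 beside the 1.04 of Exosc9. The dividing cell genes Mki67, Top2a and Ccnb1 had a summed level of at most 14.8 CPM in a 3xTg cell and 39.98 in a WT cell. The median of this level was 0 in both. At least 1 of these genes was counted in 12 of the 37 cells with Exosc9 and 5 of the 31 without. Cells with Exosc9 also had more genes detected, and the part of detection in these shares was not tested. The libraries keep strand, but whether the authors' counting used it is not given in the sources used here, so reads of the shared exons cannot be assigned to either gene. With both genes' counts added, the genotype difference was 3.34.

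**Figure D3:**
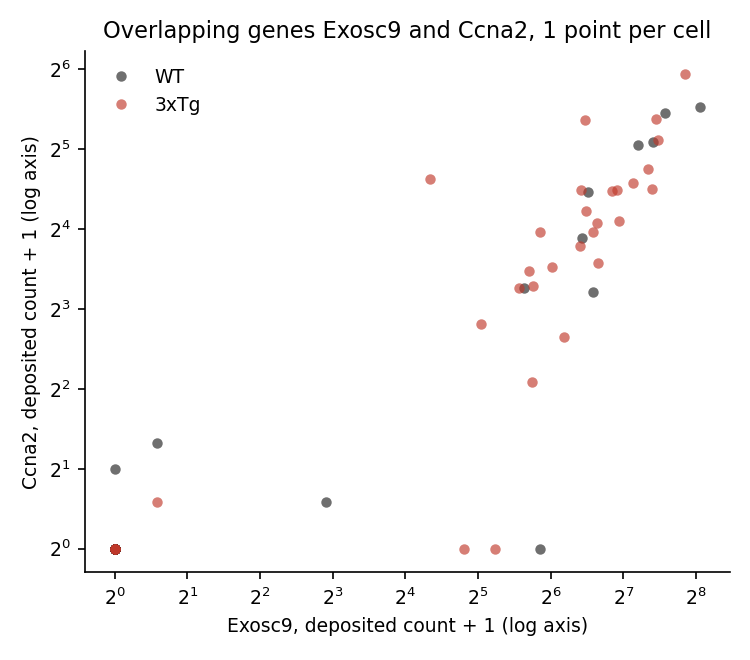
Deposited count + 1 of Exosc9 (x axis) and Ccna2 (y axis) on log axes, 1 point per cell, WT in black and 3xTg in red. In both genotypes most cells with Exosc9 also have Ccna2, at a lower count, with a median ratio of 0.181.

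Exosc4 (Gene ID 109075, chr15:76327397-76330670, plus strand), another ring subunit, was counted in almost every cell, 32 of 33 in 3xTg and 34 of 35 in WT. Its normalized count ran from 0 over a median of 92.8 to 279 in 3xTg and from 0 over 39.99 to 385 in WT. The ranges overlapped, with the middle of the 3xTg cells higher. The means were 5.86 ± 1.95 and 4.75 ± 2.10, a difference of 1.11 that was 0.97 without WT cell 7 and 0.99 with CPM in place of size factors. It was 0.73 with the number of genes per cell in the fit, 0.80 in thinned cells and 0.83 with a pseudocount of 10. By sums the log2 ratio was 0.40 (3549 and 2495 counts), and 0.63 without WT cell 17. Unlike in Exosc9, the difference was as large in the counted cells alone, at 1.16.

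The ring subunits Exosc5, Exosc7 and Exosc8 lay lower and close to each other. Exosc7 (Gene ID 66446, chr9:123113231-123136129, plus) was counted in 21 3xTg and 16 WT cells and differed by 0.93 by mean and 0.24 by sums. The sums of Exosc7 hung on single libraries, since 3xTg cell 24 held 31.6% of the 3xTg counts and WT cell 57 26.8% of the WT counts, and the ratio was −0.27 without the former and 0.65 without the latter. Exosc5 (Gene ID 27998, chr7:25659153-25668032, plus) was counted in 16 and 10 cells and differed by 0.92 by mean and 0.16 by sums. The runs of Exosc5 went opposite ways, at −0.51 for the first runs and 2.82 for the second. Its sum ratio was −0.026 without 3xTg cell 90 and 0.79 without WT cell 6, which held 37.3% of the WT counts. Exosc8 (Gene ID 69639, chr3:54728679-54735364, minus) was counted in 18 and 15 cells and differed by 0.77 by mean and 0.37 by sums, and its ratio of sums was 0.19 without 3xTg cell 78 and 0.64 without WT cell 74. In counted cells alone the differences were −0.39 for Exosc5, 0.021 for Exosc7 and 0.57 for Exosc8.

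Exosc6 (Gene ID 72544, chr8:111056339-111057599, plus) had no count in any of the 68 cells. Taking 3 counts as the limit that a count of 0 allows, the share of cells with a count could be up to 9.09% in 3xTg and 8.57% in WT, and the level up to 0.082 and 0.088 CPM, while the exact 95% intervals of the shares reach 10.6% and 10.003%. These limits cover counting error only. Whether the alignment and its filters could assign reads to Exosc6 was not tested, so the 0 says nothing about its expression, and the genotypes could not be compared.

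All 3 cap subunits were lower in 3xTg by sums, as were 52.4% of background genes, Exosc3 through a single cell. By mean 1 of them, Exosc2, was lower. Exosc2 (Gene ID 227715, chr2:31670737-31681307, plus) was the only subunit counted in all 68 cells, at normalized counts from 5.64 over a median of 85.96 to 218 in 3xTg and from 19.6 over 95.2 to 705 in WT. Its means were 6.29 ± 1.004 and 6.64 ± 1.02, a difference of −0.35 by mean and −0.49 by sums, and the latter was −0.30 without WT cell 72. The runs of Exosc2 differed in direction, −0.89 for the first runs and 0.35 for the second. Exosc1 (Gene ID 66583, chr19:41922980-41933314, minus) was counted in 16 cells of each genotype and differed by 0.077 by mean and −0.42 by sums. By mean Exosc1 was −0.084 without 3xTg cell 39, −0.19 with the number of genes per cell in the fit, −0.15 in cells without a marker the study excluded, −0.095 in thinned cells and −0.056 with a pseudocount of 10, and by sums it was −0.72 without 3xTg cell 39 and −0.18 without WT cell 57. Exosc3 (Gene ID 66362, chr4:45316630-45320603, minus) was counted in 19 3xTg and 13 WT cells and differed by 0.51 by mean and −0.67 by sums. By mean Exosc3 was 0.059 with the number of genes per cell in the fit, 0.067 with a pseudocount of 10 and −0.93 in counted cells alone. It was 0.74 in thinned cells and 1.14 with a pseudocount of 0.1. WT cell 11 held 42.5% of the WT counts of Exosc3, and without it the ratio of sums was 0.098.

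Exosc10 (Gene ID 50912, chr4:148558427-148582400, plus), the nuclear exonuclease, came next to Exosc9. It was counted in 20 3xTg and 15 WT cells. Its normalized count ran from 0 over a median of 27.2 to 1119 in 3xTg and from 0 over 0 to 504 in WT, so that the ranges overlapped and the highest cell was 3xTg. The means were 3.78 ± 3.39 and 2.14 ± 2.89, a difference of 1.63 that ranked 801 of 11414. By sums Exosc10 had 2895 and 1153 counts and a log2 ratio of 1.22, above that of Exosc9 and ranked 667. 3xTg cell 24 held 25.2% of the 3xTg sum, and without it the ratio was 0.84 and below that of Exosc9. In counted cells alone Exosc10 differed by 1.23, and by 2.10 and 0.99 between the first and the second runs.

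The answer to whether Exosc9 stood alone thus differed with the summary. By share of cells, the 53.2 points of Exosc9 were followed by 20.4 for Exosc3 and 19.9 for Exosc5, and the other counted subunits lay between −0.17 and 17.9. By mean, Exosc10 at 1.63 lay 1.60 below Exosc9, and Exosc4 at 1.11 came next. By sums, Exosc10 and Exosc9 lay together at 1.22 and 1.04 above Exosc4 at 0.40. In the counted cells alone Exosc10 and Exosc4 were highest and Exosc9 was near 0.

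**Figure D4:**
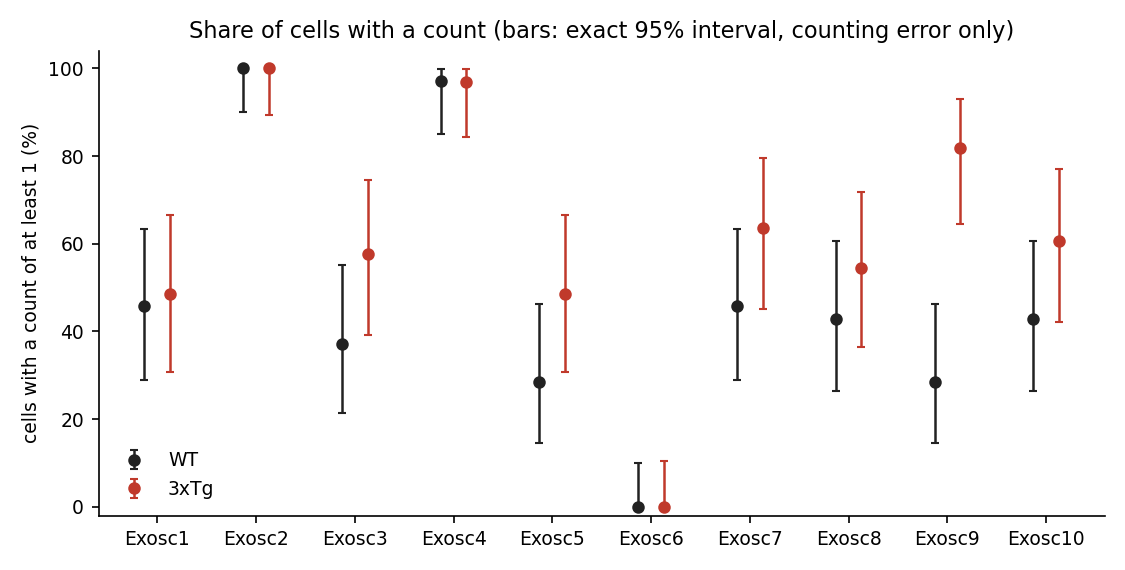
The y axis is the percentage of cells with a count of at least 1 for each subunit, in WT (black) and 3xTg (red), with exact 95% intervals that cover counting error only. The points of Exosc9, at 81.8% and 28.6%, lie farthest apart, a gap on which the family was selected, and the intervals over cells compare no animals.

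As a family, 3 of the 9 counted subunits (Exosc4, Exosc9 and Exosc10) were higher in 3xTg by 1 or more on the log2 scale by mean, which 24.3% of background genes were. Exosc4 at 1.11 lay just inside that value and Exosc7 at 0.93 just outside, and leaving out 1 cell gave 2 to 5 subunits. 1 subunit, Exosc9, passed 2, as did 2.79% of background genes, and 0.0964% passed 3. No subunit was lower by 1 or more, against 0.78% of background genes. By sums, 2 subunits passed 1 against 8.82% of background genes, and none fell by 1 or more against 10.5%. The median difference of the 10 subunits was 0.84, of the 8 counted ones without Exosc9 0.84 as well, and of background genes 0.44. Of the first runs, 3 subunits passed 1 (26% of background genes), namely Exosc7 (1.12), Exosc9 (3.25) and Exosc10 (2.10). Of the second runs, 4 did (33.3%), namely Exosc4 (1.83), Exosc5 (2.82), Exosc8 (1.12) and Exosc9 (3.21). Exosc9, on which the family was selected, is in both lists. The share of background genes that passed in both pairs of runs was not computed. Exosc4 was at 0.71 in the first runs, Exosc8 at 0.96, and Exosc7 at 0.48 in the second, while Exosc1 went from 0.66 in the first to −0.59 in the second. A set of 3988 genes followed the study's filter for expressed genes in this form, with 80% or more of a genotype's cells at a normalized count of 1 or higher, and need not be the study's own set. It held Exosc2, Exosc4 and Exosc9. Exosc9 met the criterion through its 3xTg cells alone, so that its place in that set is no separate evidence. Exosc4 and Exosc9 passed 1, as did 27.7% of that set, and 0.527% of it was lower by 1 or more.

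**Figure D5:**
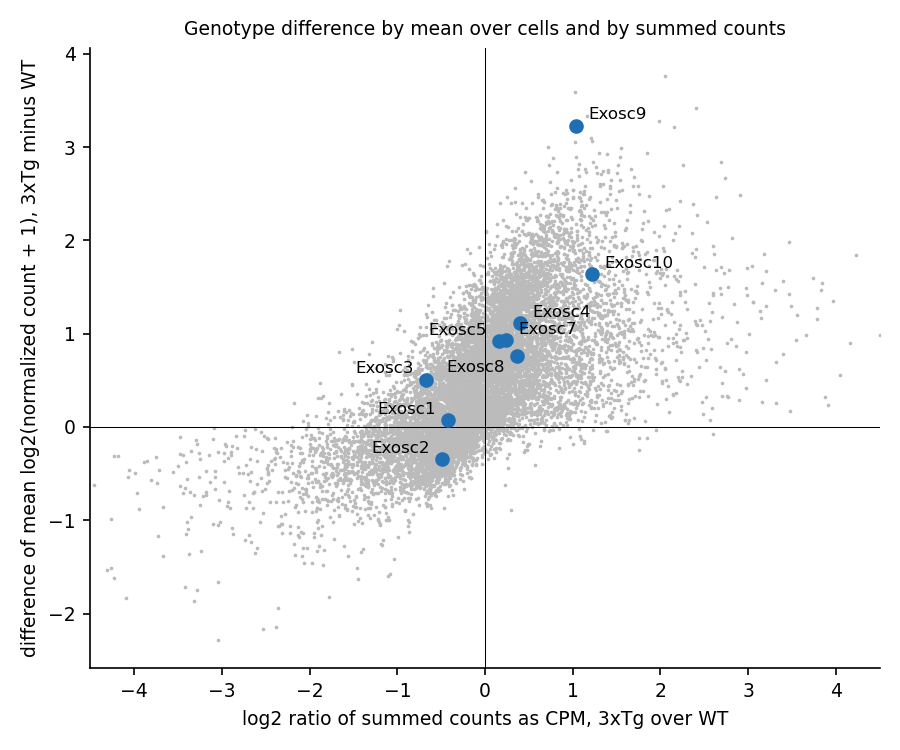
The x axis is the log2 ratio of summed counts as CPM, 3xTg over WT, and the y axis the difference of the mean log2(normalized count + 1), 3xTg minus WT, with exosome subunits in blue over 11414 background genes in grey, of which 19 lie beyond the x axis. Exosc9 sits at the upper edge at 3.23, Exosc10 lies to its right at 1.63, and the other counted subunits lie within the grey cloud between −0.35 and 1.11.

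Per cell, 3xTg neurons had counts for a median of 6 subunits (range 2 to 9) and WT neurons for 5 (1 to 9). All 9 counted subunits were present in 7 3xTg cells and 1 WT cell. These counts include Exosc9, on which the family was selected. The median number of genes detected also differed, at 8511 in 3xTg and 7476 in WT cells. Without Exosc9 the mean number of subunits was 5.30 in 3xTg and 4.4 in WT. Summed over subunits, the exosome took 466 CPM in 3xTg and 407 CPM in WT cells (log2 ratio 0.19), and 397 and 373 CPM without Exosc9, a ratio of 0.087. Exosc9 made up 14.9% of the exosome counts in 3xTg and 8.32% in WT.

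Levels can be compared between subunits only per length. As CPM per kilobase of transcript, the order in 3xTg was Exosc2 (62.7), Exosc4 (53.8), Exosc9 (42.97), Exosc7 (36.6), Exosc10 (28.5), Exosc5 (23.2), Exosc8 (14.6), Exosc3 (13.8) and Exosc1 (11.7). In WT it was Exosc2 (87.8), Exosc4 (40.8), Exosc7 (31.01), Exosc3 (21.97), Exosc9 (20.96), Exosc5 (20.7), Exosc1 (15.7), Exosc10 (12.3) and Exosc8 (11.3). Exosc2 and Exosc4 led in both genotypes, and the spread across cells behind these levels was wide, with an SD of 1.004 to 3.39 on the log2 scale, so that neighbours in either order are not told apart. Pearson's r over the 68 cells, all from libraries of unequal depth and detection, ran from −0.17 to 0.44 over the 36 pairs with a median of 0.12. For Exosc9 it ran from −0.10 with Exosc2 to 0.44 with Exosc4, and was 0.48 with the number of genes detected. Within genotypes it was 0.47 in 3xTg and 0.28 in WT for Exosc4, and 0.094 and 0.55 for Exosc7.

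The 5 genes most like Exosc9 across the 68 cells were sought by Pearson's r of the log2 values. The search covered the 3988 genes of the study's filter. None of the 5 belonged to the exosome, but of the other subunits that set held only Exosc2 and Exosc4. With so few subunits among 3988 genes, their absence says nothing about the exosome. The 5 genes included Grpel1, a co-chaperone of mitochondrial protein import (r = 0.60), and Cap1, an actin regulator (0.59). Rab3gap1, a regulator of Rab3 and Rab18 (0.59), and Wipi2, which acts in autophagosome formation (0.58), were also among them. Within genotypes r was 0.76 in 3xTg and 0.40 in WT for Grpel1, and 0.79 and 0.19 for Cap1. These genes differed between genotypes by 1.69 (Grpel1), 3.76 (Cap1), 1.61 (Rab3gap1) and 2.73 (Wipi2) by mean. Each correlated with the number of genes detected at 0.45 to 0.69. Cells with a count were 28 in 3xTg and 15 in WT for Cap1, and 28 and 20 for Wipi2. For Rab3gap1 they were 27 and 21, and for Grpel1 30 and 27, so that the filter was met mainly through 3xTg cells. The genes were also picked by r over both genotypes with a gene selected on its genotype difference. Their own differences are therefore no separate evidence.

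Both exchangeable nucleases of the exosome were higher in 3xTg by 1 or more by sums, as were 8.82% of background genes, and 1 of them, Dis3l, by mean, as were 24.3%. Dis3 had counts in 16 cells of 3xTg and 8 of WT, summing to 743 and 205, a log2 ratio of 1.75 and a difference of 0.95 by mean. 3xTg cell 24, which also led Exosc7 and Exosc10, held 38.8% of the 3xTg counts of Dis3, and the ratio was 1.08 without it. Dis3l was counted in 22 and 20 cells, with 899 and 322 counts, a ratio of 1.37 and a difference of 1.205. Leaving out any 1 cell kept the ratio of Dis3l between 1.16 and 1.78.

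Nuclear cofactors bring RNA to the exosome. They comprise the helicase Skiv2l2, the TRAMP poly(A) polymerases Papd5 and Papd7 with Zcchc7, the NEXT proteins Rbm7 and Zcchc8, the PAXT proteins Zfc3h1 and Pabpn1, the cap-binding proteins Ncbp1 and Ncbp2 with Srrt, and the exosome-associated C1d and Mphosph6. Of these 13 genes, 3 were higher by 1 or more by mean (24.3% of background genes) and 0 were lower, with a median difference of 0.66. They were Ncbp1 (1.76), C1d (1.66) and Papd7 (1.21), followed by Ncbp2 at 0.98, and the lowest were Mphosph6 at 0.11 and Papd5 at 0.07. By sums the median was −0.094 and 1 of 13 passed 1 (8.82% of background genes), Papd7 at 2.12 with 432 and 92 counts and a range of 1.88 to 2.74 when 1 cell was left out. Nrde2, a further cofactor, was not analysed here.

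The SKI complex feeds RNA to the cytoplasmic exosome, and Hbs1l recognises stalled ribosomes, with an isoform that links SKI to the exosome. Wdr61 and Hbs1l each differed by 1.56 by mean, Ttc37 by 0.79 and the helicase Skiv2l by 0.50, a median of 1.18, so that 2 of 4 passed 1 (24.3% of background genes). By sums none of the 4 passed 1 (8.82% of background genes), and the median was 0.060. The runs of Wdr61 differed by 0.72 in the first pair and 2.77 in the second.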

How the data were processed

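RNA of 68 patched cells was amplified (NEBNext Single Cell/Low Input kit, 28 PCR cycles, no molecular identifiers) and sequenced. The authors aligned reads in Strand NGS 4.0 to mm10 RefSeq transcripts with at least 90% identity, removed duplicate reads and deposited estimated counts per gene, of which 55.3% of those above 0 were not whole (tolerance 0.001). Their stated selection kept cells positive for Th, Slc6a3 and Slc18a2 and negative for Pvalb, Tmem119, P2ry12 and Aldh1l1, although 10 of the 68 cells have a count of at least 1 for Pvalb, Tmem119 or P2ry12. The deposited log2 values, which the authors normalized with DESeq2 and which are, from the values, shifted per gene, served as an alternative only. Here, size factors (median of ratios, 787 genes) were computed from the estimated counts, and counts were rounded to whole numbers for sums, thinning and edgeR's TMM factors. The pseudocount was 1. Intervals are exact at 95% and cover counting error only. No cells were clustered and doublets were not called.

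The members and the gene lists were chosen with earlier results of these data known. Genes named are all 10 members, the nuclease and SKI genes, the 4 largest and 2 smallest differences of longer lists, the 5 genes most correlated with Exosc9, of which 1 is not reported here, and Ccna2, which was chosen after its overlap was seen. Cell number 57, for example, is the number in the label. Transcript lengths and shared exons come from GENCODE M21. Calculations were tested on simulated data with known changes. The alternatives were CPM, TMM factors, the deposited log2 values, summed counts, counted cells alone, pseudocounts of 0.1 and 10, a linear fit with the genes detected per cell, thinning, runs of label numbers, cells without a marker that the study excluded, and leaving out each cell. Adding Ccna2, leaving out Exosc6 and leaving out the top cell of each genotype were chosen after seeing the data. Versions were edgeR 4.0.16 under R 4.3.3, and pandas 2.3.3, scipy 1.17.1, numpy 2.4.6 and matplotlib 3.10.9 under Python 3.11.15.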

Additional observations from a re-analysis of the deposited data

How the results depend on the processing

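The Exosc9 difference of 3.23 was 3.18 with CPM, 3.29 with TMM factors, 3.22 with the deposited log2 values and 3.09 in thinned cells. It was 5.00 with a pseudocount of 0.1, 1.56 with a pseudocount of 10, 2.62 with genes detected as a term, 1.04 by summed counts, and reversed to −0.060 in cells with a count alone. The median of the 10 subunits (0.84) was 0.34 with a pseudocount of 10 and 0.310 with genes detected as a term, and, over the 9 counted subunits (0.92), 0.24 by summed counts and −0.060 in cells with a count alone. The number of subunits higher by 1 or more (3) was 7 with a pseudocount of 0.1, 1 with a pseudocount of 10 and 1 at a fold of 2 on the log2 scale. The pseudocount and the cells at 0 enter these values by construction. With a pseudocount of 1, 24.3% of background genes passed 1 and 2.79% passed 2. At the other pseudocounts the share of background genes was not computed, so that 7 and 1 cannot be set against all genes. The Exosc9 log2 ratio of sums (1.04) was 1.22 in the 28 and 30 cells without a marker the study excluded, 1.73 between the first runs, 0.43 between the second, and 1.27 without the cell with the most Exosc9 counts of each genotype. In the second runs the shares of cells with Exosc9 were 100% and 46.7%. The cause of the differences between runs was not tested.

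Leaving out 1 cell at a time gave 3.15 to 3.42 for the Exosc9 difference, 0.73 to 0.98 for the median of the subunits, 0.93 to 1.37 for the ratio of sums, and shares of 81.2% to 84.4% in 3xTg and 26.5% to 29.4% in WT. The number of subunits past 1 ran from 2 to 5. It was 2 without WT cell 7, and 5 without WT cell 1, 8, 10, 59, 60 or 64. Exosc1 and Exosc3 were above 0 by mean and below 0 by sums. No paired analysis was possible because the 3xTg and WT cells share no label number. With no mouse named, the spread between animals cannot be told apart from that between cells, and a cell without a count may have held transcripts that were not captured.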

Other observations

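Other mRNA decay genes were mostly higher in 3xTg by mean, at 27 of 32 above 0 (72.8% of background genes), but not by sums, at 13 of 32 (47.6% of background genes). Of 34 genes of decapping, deadenylation, 5′ to 3′ decay and nonsense-mediated decay, 32 were among the background genes, 9 were higher in 3xTg by 1 or more by mean (24.3% of background genes) and 1 was lower (0.78%). Their median difference was 0.59 by mean and −0.068 by sums. The highest were Lsm5 (1.79) and Lsm1 (1.48), members of the ring that binds deadenylated mRNA, Upf2 (1.59), a factor of nonsense-mediated decay, and Edc3 (1.44), an enhancer of decapping. Lsm5 was counted in 26 3xTg and 13 WT cells. Lsm1 differed by 0.025 in the first runs and by 3.05 in the second. By sums Upf2 gave 1.61, but 3xTg cell 24 held 57.8% of its 3xTg counts and the ratio was 0.41 without that cell. Upf1, the helicase of nonsense-mediated decay, was lower in 3xTg by both summaries, at −1.20 by mean and −1.73 by sums. It was counted in 22 cells of 3xTg and 27 of WT, with sums of 130 and 399. These sums are small, and the ratio of Upf1 without single cells was not computed. Between the first runs Upf1 differed by −0.95 and between the second by −1.38. The deadenylase Parn followed at −0.59 by mean. Cnot7 had no count in any cell, and Pan2 was counted in too few cells to enter.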
